A study of Mus musculus with 6 samples.

Results

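The genes that encode the subunits of AMPA and NMDA glutamate receptors were followed in RNA sequencing data from the prefrontal cortex (PFC) of tauopathy mice. They were chosen by symbol: the 4 AMPA receptor genes Gria1, Gria2, Gria3 and Gria4, and the 6 NMDA receptor genes Grin1, Grin2a, Grin2b, Grin2c, Grin2d and Grin3a. All 10 were found among the 54429 genes in the count files, and all 10 passed the filter on low counts that left 20409 genes for testing. Bulk PFC tissue of 6-month-old mice was sequenced in 6 libraries, 2 biological replicates per group. WT mice of the C57BL/6 x C3H background received vehicle (saline with 0.18% DMSO). Tau mice, PS19(P301S) animals that carry a mutant human tau transgene on this background, received either the same vehicle or UNC0642. The compound, an inhibitor of the histone methyltransferases EHMT1 and EHMT2 that write the repressive mark H3K9me2, was injected at 1 mg/kg on each of 3 days. The human tau transgene is driven by the mouse prion protein (Prnp) promoter. WT mice given UNC0642 were not analysed here, so an effect of the compound in the absence of the transgene was outside these comparisons.

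AMPA receptors are tetramers of the GluA1 to GluA4 subunits, encoded by Gria1 to Gria4, and carry most of the fast excitatory current at cortical synapses. NMDA receptors pair the obligatory GluN1 subunit, encoded by Grin1, with GluN2 or GluN3 subunits, open only when glutamate and a co-agonist bind and the magnesium block is relieved, and admit the calcium that triggers synaptic plasticity. GluA2 sets the calcium permeability of AMPA receptors, and the GluN2 subunit sets the kinetics, the magnesium block and the partners of NMDA receptors. The questions addressed were whether the mRNA of any subunit differed between Tau and WT mice, and whether it differed again after the inhibitor.

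Some libraries stood apart before any subunit was considered. Total counts ran from 17005664 to 28972176 per library. Prnp had 872.9 CPM (counts relative to the TMM-scaled library size) in WT replicate 2 but 1652 CPM in the library labelled WT replicate 1, inside the 1470.3 to 1694 CPM of the 4 transgenic libraries. Mapt, the mouse tau gene, had 449 CPM in WT replicate 2 and 571 to 614 CPM in the other 5. The label of WT replicate 1 may therefore be wrong, and every WT mean, SD and share below includes it as labelled, with WT replicate 2 given beside it as a value of its own for each subunit gene. The library labelled WT replicate 1 also held 118 CPM over 5 olfactory bulb markers, against 4.54 to 8.83 CPM elsewhere, where the defining marker Tbx21 was at 0 in both Tau libraries. Tau replicate 2 held 166 CPM over 6 striatal neuron markers (63.6 to 78.2 CPM elsewhere) and 5295 CPM over 7 oligodendrocyte markers (1391 to 2854 CPM elsewhere). All 7 markers of cortical excitatory neurons were detected in every library, at 1286 to 1529 CPM in sum. Xist had 4104 to 8107 counts in WT replicate 2 and both Tau libraries and 2 to 5 counts in the other libraries, which carried the Y-linked gene Ddx3y instead. UNC0642-treated and untreated Tau libraries therefore cannot be told apart from male and female libraries. Each subunit result below is given with the values it takes when these libraries are left out, wherever that changes a call.

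**Figure D1:**
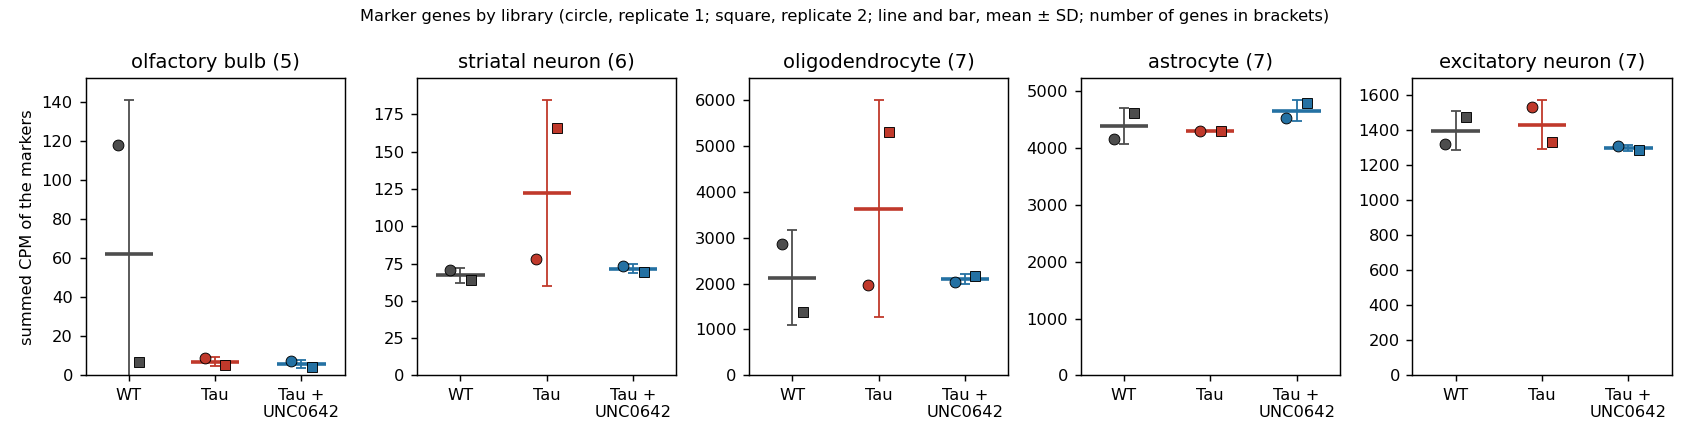
Summed CPM of 5 marker lists (vertical axes, linear from 0) in the 3 groups; circles are replicate 1, squares replicate 2, and lines with bars are the mean ± SD of 2 libraries. The library labelled WT replicate 1 stands alone at 118 CPM for olfactory bulb markers, and Tau replicate 2 at 166 CPM for striatal and 5295 CPM for oligodendrocyte markers.

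Grin2c was the only subunit gene called in any comparison, and Grin1 encodes the partner of every GluN2 subunit, so their upstream sequences are shown. RefSeq promoter sequences (GRCm38.p6) matched 5 of the 10 genes: Gria2, Gria4, Grin1, Grin2c and Grin2d. The 250 bases before the start of Grin2c lie at chr11:115267244-115267493 and those of Grin1 at chr2:25319188-25319437, both on the minus strand. They are written 5′ to 3′ in the direction of transcription, with each CG dinucleotide in capitals.
Grin2c: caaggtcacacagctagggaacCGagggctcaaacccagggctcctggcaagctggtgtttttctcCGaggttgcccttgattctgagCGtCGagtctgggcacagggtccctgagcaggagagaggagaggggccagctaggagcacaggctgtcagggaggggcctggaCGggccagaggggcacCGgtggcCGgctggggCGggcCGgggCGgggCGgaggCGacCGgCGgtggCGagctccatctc
Grin1: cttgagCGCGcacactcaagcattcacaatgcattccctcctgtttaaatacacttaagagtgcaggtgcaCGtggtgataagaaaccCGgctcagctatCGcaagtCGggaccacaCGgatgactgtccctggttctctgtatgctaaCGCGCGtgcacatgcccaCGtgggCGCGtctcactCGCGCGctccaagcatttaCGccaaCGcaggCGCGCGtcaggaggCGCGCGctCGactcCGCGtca
Grin1 held 27 CG dinucleotides in this window and Grin2c held 15, against a median of 6 over 32851 mouse promoters of the same length. Grin2c held the letters GGGCGG 3 times on either strand, each overlapping a CG, and the other 4 genes held none. This motif, known as a GC box, occurred in 32.7% of all promoters. TGACGTCA (1.55% of promoters) and TATAAA (12.4%) were searched on both strands and occurred in none of the 5 windows. These matches describe the sequence, and no binding or histone mark was measured here.

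Levels were compared between genes as CPM per kilobase of merged exons (GENCODE M21, GRCm38). Gria1 (77.9 to 95.3 CPM per kb over the 6 libraries) and Gria2 (69.2 to 81.9 CPM per kb) were the most abundant, and their ranges overlapped. Grin2b followed at 36.4 to 54.2 CPM per kb, with Gria3 at 37.8 to 46.7, Gria4 at 33.1 to 38, and Grin2a at 31.5 to 38.9 CPM per kb. Each of these overlapped its neighbour in the order. Grin1 lay below them at 16.5 to 19.6 CPM per kb. Grin2c (5.32 to 7.06 CPM per kb) and Grin3a (5.2 to 6.65 CPM per kb) overlapped, and Grin2d was lowest at 0.396 to 0.705 CPM per kb. The order of the abundant genes depended on the length used. Per kilobase of coding sequence, which counts reads in untranslated exons without their length, Gria2 came first at 383.6 to 454 CPM per coding kb and Gria1 after Grin2b at 166 to 203 CPM per coding kb. The counts of the 10 genes together came to 0.397% to 0.466% of the TMM-scaled size of a library. Their summed level was 4346 ± 377 CPM in WT, 4312 ± 485 CPM in Tau and 4299 ± 205 CPM in UNC0642-treated Tau mice (SD, n = 2 each), a difference between groups smaller than the spread within them.

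**Figure D2:**
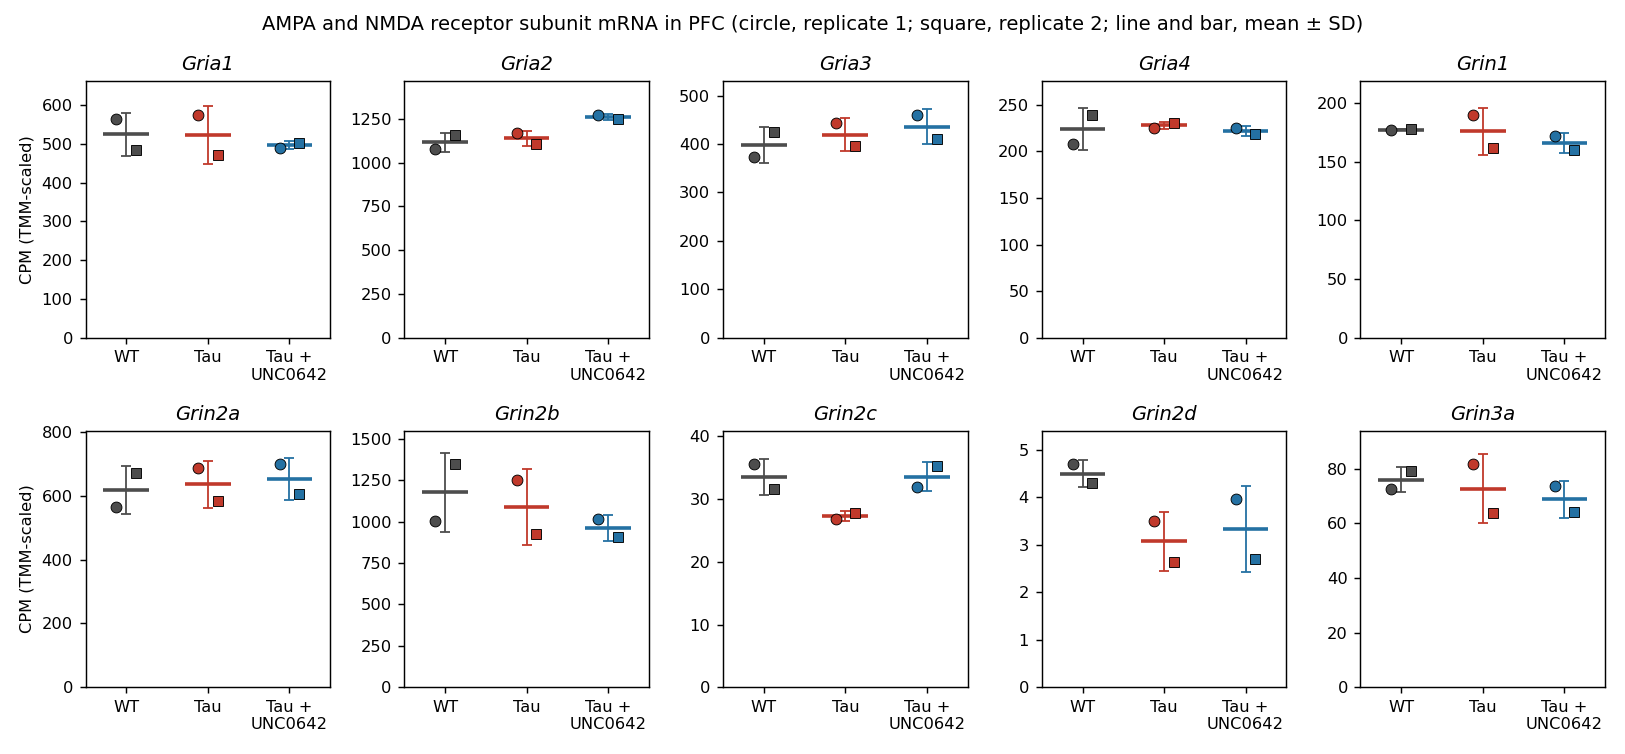
TMM-scaled CPM of each subunit gene (vertical axes, linear from 0, one scale per gene) in the 3 groups; circles are replicate 1, squares replicate 2, and lines with bars are the mean ± SD of 2 libraries. Grin2c is below 28 CPM in both Tau libraries and above 31 CPM in the other 4. The 2 Tau libraries of Gria1, Gria3, Grin1, Grin2a, Grin2b and Grin3a lie farther apart than the group means.

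Grin2c encodes GluN2C, a GluN2 subunit with weak magnesium block that in the cortex is known to be enriched in astrocytes. The gene lies at chr11:115249169-115267243 (minus strand, 16 merged exons). Its level was 35.6 CPM in the library labelled WT replicate 1 and 31.6 CPM in WT replicate 2. Tau replicates 1 and 2 had 26.8 and 27.8 CPM, and UNC0642 replicates 1 and 2 had 31.9 and 35.2 CPM. The values of the other genes follow the same order. Both Tau libraries were below all 4 others, and the WT and UNC0642 ranges overlapped. Grin2c fell in Tau against WT by 0.30 on the log2 scale (0.813-fold, SE 0.11, 95% interval -0.54 to -0.05, adjusted p = 0.339, edgeR quasi-likelihood test). It rose in UNC0642-treated against untreated Tau mice by 0.30 (1.23-fold, SE 0.11, 95% interval 0.05 to 0.55, adjusted p = 0.482). Against WT, the treated mice differed by 0.00 (95% interval -0.24 to 0.24). Both differences met the study's threshold, an unadjusted p under 0.05 and at least 1.2-fold, which is what called means here, and neither passed Benjamini-Hochberg adjustment over all genes tested. Of all genes, 6.32% had a smaller p in the first comparison and 4.51% in the second. Both comparisons rest on the same 2 Tau libraries, and Grin2c also stands in a list of genes that the study drew from these libraries, so its direction is not independent evidence.

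Both Tau libraries were below all 4 others for Grin2c, so a fit without 1 library could hardly reverse its direction. Its log2 fold change ran from -0.38 to -0.21 in Tau against WT and from 0.23 to 0.37 after UNC0642 in these fits, and its calls changed. The call in Tau against WT was lost without the library labelled WT replicate 1 (log2 fold change -0.21) and without Tau replicate 1 (-0.27). The call after UNC0642 was lost without Tau replicate 1 (0.27) and without UNC0642 replicate 2 (0.23). With a term for the sex-linked pattern the log2 fold changes were -0.21 and 0.13, and neither was called. Only WT held both patterns, so this term rests on the difference within the WT pair. It cannot separate sex from the tissue or label of the library labelled WT replicate 1. Over all alternatives the adjusted p ran from 0.255 to 0.569 in Tau against WT and from 0.179 to 0.904 after UNC0642. Astrocyte markers were measured beside it. Their sum over 7 genes was 4158 and 4613 CPM in WT, 4299.9 and 4298 CPM in Tau and 4526 and 4781 CPM in UNC0642-treated Tau mice, with none at 0. Of the 7, Gfap was called higher in Tau against WT, by 0.60 on the log2 scale (adjusted p = 0.371), against 3.72% of all genes. After UNC0642 edgeR called 0 of 7, against 7.69% of all genes, with 0 unadjusted p-values under 0.05. Endothelial markers had the same signs as Grin2c in Tau against WT and after UNC0642. Of 6 genes, 4 were called lower in Tau against WT, against 6.1% of all genes (1 with an adjusted p under 0.05, median log2 fold change -0.41). After UNC0642 all 6 were higher by sign and 1 was called higher, against 3.73% of all genes called higher. In UNC0642-treated Tau against WT they departed from Grin2c, with 3 of 6 called lower (5.69% of all genes) and a median of -0.26, against 0.00. Medians with the same signs as Grin2c were also found for meningeal fibroblast markers (-0.27 and 0.16) and olfactory bulb markers (-3.38 and 0.24). The olfactory bulb sum was 8.83 and 5.38 CPM in Tau and 7.16 and 4.54 CPM in the treated libraries. Medians had opposite signs for striatal (1.06 and -0.92), oligodendrocyte (0.77 and -0.76), progenitor (0.20 and -0.33) and microglia (0.29 and -0.18) markers. The same held for excitatory (0.11 and -0.15), inhibitory (0.12 and -0.06), thalamic (0.20 and -0.11) and general neuronal (0.15 and -0.02) markers. The endothelial sum was 188 and 177 CPM in WT, 129 and 139 CPM in Tau and 133 and 175 CPM in UNC0642-treated Tau libraries, with none at 0. The part of these markers in the result was not tested. In bulk tissue, fewer cells of a type and less RNA per cell cannot be told apart.

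Grin2d, which encodes the slowly deactivating GluN2D subunit known from interneurons, was close to the limit of what these libraries could resolve. It had 119 and 110 counts in WT, 98 and 46 in Tau, while the treated libraries had 67 and 61. In CPM these were 4.69 and 4.3, 3.5 and 2.63, and 3.97 and 2.69. Both Tau libraries and both UNC0642 libraries were below both WT libraries, while Tau and UNC0642 overlapped. The log2 fold change in Tau against WT was -0.54 (SE 0.28, 95% interval -1.16 to 0.08, adjusted p = 0.458), so neither no change nor a 2-fold decrease lay outside its interval. After UNC0642 it was 0.09 (95% interval -0.55 to 0.73). An antisense gene, Gm45441, shares 9.66% of the exon bases of Grin2d and had 16 to 61 counts. The strand setting of the counting is not given in the sources used here, so reads of the pair may not have been separated.

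Grin2b encodes GluN2B, the subunit of slow NMDA receptors that binds CaMKII, and it was the subunit gene with the widest spread between replicates among those with over 100 CPM. Its level was 1006 and 1346 CPM in WT, 1252 and 928 CPM in Tau and 1015 and 905 CPM in UNC0642-treated Tau libraries. The 2 libraries of WT differed by 0.42 on the log2 scale and those of Tau by 0.43 in the opposite order, and all 3 groups overlapped. Grin2b was not called: the log2 fold change was -0.11 (SE 0.15) in Tau against WT, -0.18 (SE 0.15) after UNC0642 and -0.29 (SE 0.15, 95% interval -0.64 to 0.05, adjusted p = 0.485) in UNC0642-treated Tau against WT. The last comparison turned into a call in edgeR when any of 3 libraries was left out. It was -0.49 without the library labelled WT replicate 1, -0.29 without Tau replicate 1 and -0.29 without Tau replicate 2, and none of these passed adjustment. Tau against WT was called without Tau replicate 1 (-0.34) but was 0.09 without Tau replicate 2. After UNC0642, the change was called without Tau replicate 2 (-0.39) but was 0.05 without Tau replicate 1. Tau against WT was also 0.12 without WT replicate 2, and after UNC0642 the value was 0.24 with the sex term. The direction of Grin2b in the first 2 comparisons thus changed with the library left out or with the term for sex.

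Grin2a encodes GluN2A, the faster subunit that replaces much of GluN2B in the mature cortex. It had 564 and 671 CPM in WT, 687 and 584 CPM in Tau and 698 and 605 CPM in UNC0642-treated Tau libraries, and every pair of groups overlapped. Its log2 fold change was 0.04 (SE 0.11, 95% interval -0.21 to 0.29) in Tau against WT and 0.04 (95% interval -0.21 to 0.28) after UNC0642.

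Grin1, whose GluN1 product is needed by every NMDA receptor, was at 177 and 178 CPM in WT, 190.2 and 162 CPM in Tau and 172 and 159.8 CPM in UNC0642-treated Tau libraries. The 2 Tau libraries lay on either side of the WT pair, and both UNC0642 libraries were below it. Tau against WT gave -0.01 (95% interval -0.21 to 0.19), inside 1.2-fold in both directions. The log2 difference of UNC0642-treated Tau from WT was -0.10 (95% interval -0.30 to 0.10). The antisense gene Grin1os shares 13.5% of the Grin1 exon bases and had 26 to 75 counts, against 2821 to 5321 for Grin1. Grin3a, which encodes the glycine-binding GluN3A that lowers calcium flow and is known mainly from young brain, had 72.7 and 79.2 CPM in WT, 81.6 and 63.8 CPM in Tau and 73.5 and 64.1 CPM in UNC0642-treated Tau libraries. Its groups overlapped, and its log2 fold changes were -0.06 (SE 0.12) in Tau against WT and -0.08 (SE 0.12) after UNC0642. Grin3b, the remaining NMDA receptor gene, had 0 to 8 counts and was not tested.

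Gria2 encodes GluA2, which in its edited form makes AMPA receptors impermeable to calcium. Its level was 1076 and 1155 CPM in WT, 1169 and 1105 CPM in Tau and 1274 and 1250.4 CPM in UNC0642-treated Tau libraries. Both treated libraries were above all 4 others, and WT and Tau overlapped. UNC0642-treated Tau was higher than WT by 0.18 on the log2 scale (1.13-fold, SE 0.07, 95% interval 0.01 to 0.34, adjusted p = 0.377). Its unadjusted p was under 0.05, but the difference missed the 1.2-fold limit. This p was 0.073 in edgeR's likelihood ratio test. In the quasi-likelihood test it was 0.068 with a replicate block, 0.062 with at least 10 counts in every library and 0.058 with library size alone. It stayed under 0.05 in DESeq2's Wald test (0.026) and limma-voom (0.017), and in edgeR with DESeq2 size factors, no filter or the sex term. Against untreated Tau the difference was 0.15 (SE 0.07, 95% interval -0.02 to 0.32, adjusted p = 0.596). Without single libraries the difference from WT ran from 0.13 to 0.23 and that from untreated Tau from 0.11 to 0.19. The difference from WT was smallest without the library labelled WT replicate 1 and largest without WT replicate 2. Whether its unadjusted p stayed under 0.05 also depended on the library left out.

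Gria1, which encodes the GluA1 subunit inserted at synapses during potentiation, had 564 and 485 CPM in WT, 576 and 471 CPM in Tau and 489 and 504 CPM in UNC0642-treated Tau libraries. The treated pair lay inside the span of the Tau pair. The log2 fold change was 0.00 (95% interval -0.24 to 0.23) in Tau against WT and -0.08 (95% interval -0.31 to 0.16) after UNC0642. Gria3, an X-linked gene that encodes GluA3, had 372 and 424 CPM in WT, 443 and 395 CPM in Tau and 461 and 410.2 CPM in UNC0642-treated Tau libraries. Its groups overlapped, with log2 fold changes of 0.08 (SE 0.09) and 0.05 (SE 0.09). Gria4 encodes GluA4, known from fast-spiking interneurons, and had 208 and 239.6 CPM in WT, 226 and 231 CPM in Tau and 226 and 218 CPM in UNC0642-treated Tau libraries. Both treated libraries were below both Tau libraries by a small margin, at a log2 difference of -0.04 (95% interval -0.22 to 0.14).

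**Figure D3:**
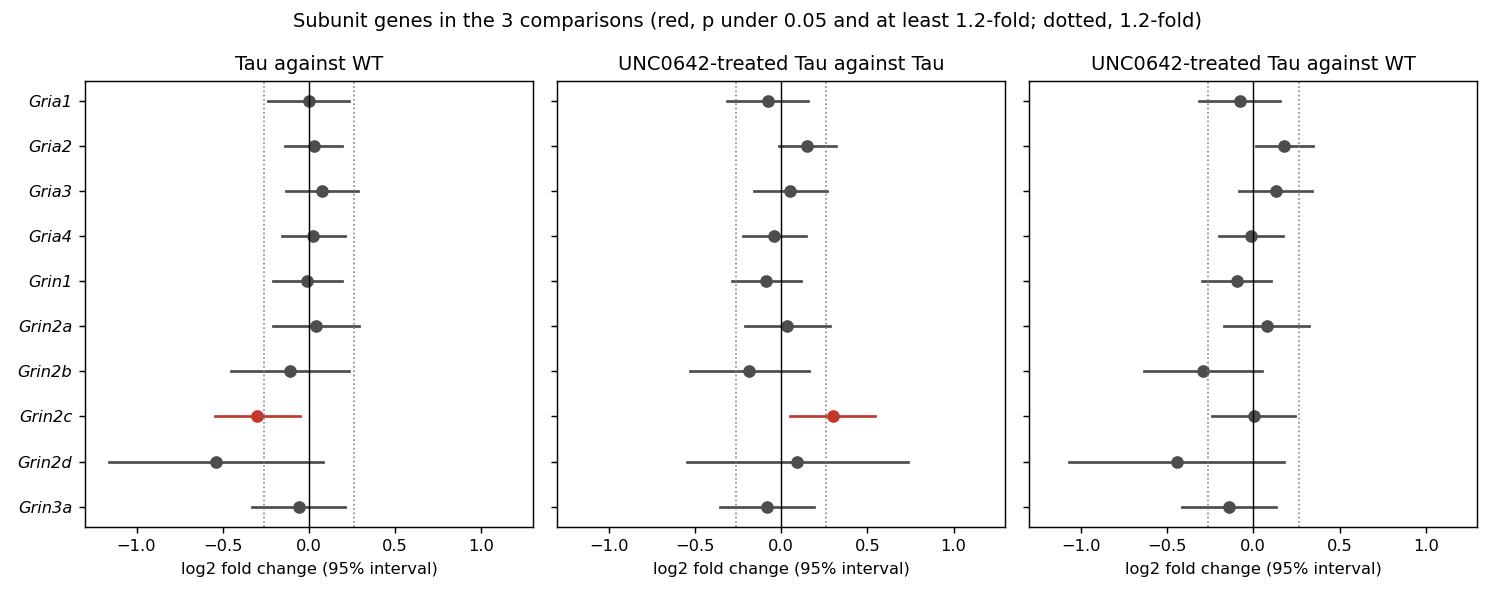
Log2 fold change (horizontal axis) of the 10 subunit genes (vertical axis) in the 3 comparisons; points are edgeR estimates, bars are 95% intervals, and dotted lines mark 1.2-fold. Grin2c, in red, is the only gene called, at -0.30 in Tau against WT and 0.30 after UNC0642, and the bar of Grin2d in Tau against WT is the widest, from -1.16 to 0.08.

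Counted over the comparisons, 1 of 10 subunit genes was called in Tau against WT, where 9.81% of all tested genes were called (6.1% lower and 3.72% higher). In UNC0642-treated against untreated Tau it was again 1 of 10, with 7.69% over all genes (3.95% lower and 3.73% higher). In UNC0642-treated Tau against WT it was 0 of 10, with 9.47% over all genes (5.69% lower and 3.77% higher). These shares are near the background. An unadjusted p under 0.05, with no fold limit, was found for 1 of 10 genes in each comparison (Grin2c, Grin2c and Gria2) and for 12.4%, 8.86% and 12.1% of all genes. In UNC0642-treated Tau against WT, DESeq2's Wald test and limma-voom also called 0. None of the 10 had an adjusted p under 0.05 in the edgeR fit of the 6 filtered libraries, against 0.157%, 0.0196% and 0.216% of all genes. Alternatives with an adjusted p under 0.05 for Grin2b (no filter) and for Grin2b and Gria1 (without the 2 libraries that stand apart) are given with the processing. Groups did not overlap for 2 genes in Tau against WT, both lower in Tau, against 43.2% of all genes (21.4% lower and 21.9% higher). After UNC0642 they did not overlap for 3 genes, 1 lower and 2 higher, against 41.3% of all genes (20.9% lower and 20.4% higher). For UNC0642-treated Tau against WT the count was 3 genes, 2 lower and 1 higher, against 44.4% (22.3% lower and 22.1% higher). The median log2 fold change of the 10 was -0.01, 0.00 and -0.05 in the 3 comparisons, and over all genes tested 0.00, 0.00 and -0.01. By sign alone, Grin2c and Grin2d were lower in Tau and higher after UNC0642, and Gria4 was the reverse. That first pattern of signs was found in 31.9% of all genes, and calls in opposite directions in 2.63%. In Tau against WT, the 95% interval lay within 1.2-fold for Gria1, Gria2, Gria4 and Grin1 and within 2-fold for 9 genes. After UNC0642 it lay within 2-fold for all 10 and within 1.2-fold for Gria4.

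**Figure D4:**
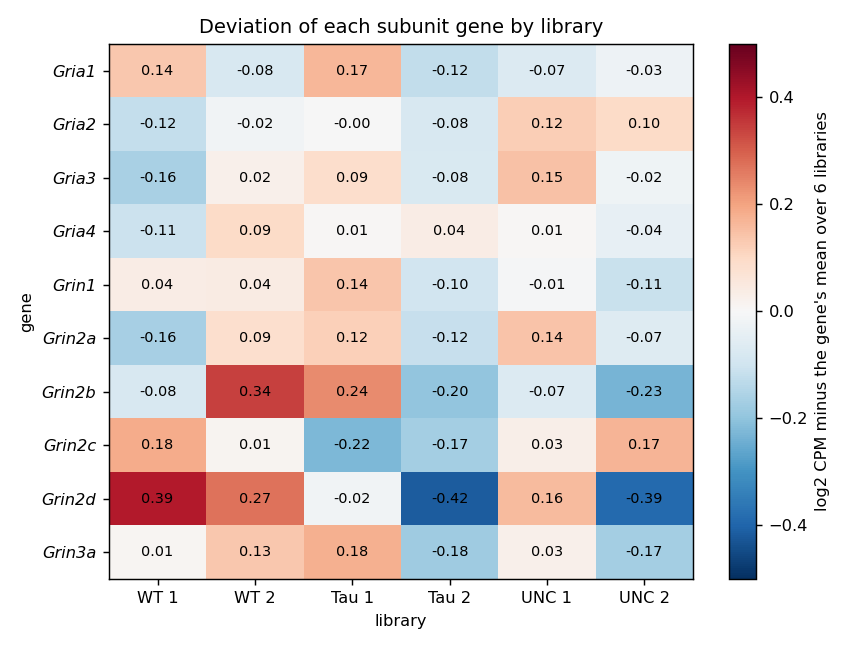
Deviation of each subunit gene (rows) in each library (columns) from the gene's mean log2 CPM over 6 libraries; red is higher and blue lower. Tau replicate 1 is above the mean for 7 genes and Tau replicate 2 for 1, and in the row of Grin2c both Tau libraries are blue, at -0.22 and -0.17.

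The libraries also differed in how many subunit genes lay above their own mean, against 50.7% to 52.7% of all tested genes in each library. Tau replicate 1 was above for 7 of 10 genes (median deviation 0.10 on the log2 scale), and Tau replicate 2 for 1 of 10, Gria4 (median -0.12). WT replicate 2 was above the mean for 8 genes and the library labelled WT replicate 1 for 5. In the treated group UNC0642 replicate 1 was above for 7 and replicate 2 for 2. Tau replicate 2 is the library with the most striatal and oligodendrocyte marker RNA, and the part of that RNA in these deviations was not tested. Grin2c and Gria2 were the genes whose spread between group means (0.17 and 0.10 on the log2 scale) exceeded their spread within groups (0.09 and 0.05) by the most. Grin2d had 0.29 against 0.28, and the other 7 genes had more spread within groups than between them. Over the 6 libraries the full range was 0.20 for Gria4, smallest of the 10, and 0.81 for Grin2d, and 8.6% and 64.5% of tested genes had a smaller range.

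The make-up of each receptor pool was described from the same counts, with no test of its own. Among the 4 GluN2 genes, per kilobase of exons, Grin2a took 38.7% ± 1.0 of the pool in WT, 41.7% ± 1.7 in Tau and 44.2% ± 1.0 in UNC0642-treated Tau mice (SD, n = 2 each). Grin2b took 52.9% ± 3.0, 51.3% ± 2.9 and 47.0% ± 0.096. Grin2c took 7.61% ± 1.8, 6.46% ± 1.2 and 8.16% ± 1.2. The ratio of Grin2a to Grin2b counts needs no length and was 0.561 and 0.499 in WT, 0.548 and 0.629 in Tau, while the treated libraries had 0.688 and 0.668. Both treated libraries were above the other 4, and Tau and WT overlapped. Among the AMPA receptor genes, Gria2 took 30.6% ± 1.3 of the pool in WT, 30.7% ± 1.1 in Tau and 33.5% ± 0.081 in UNC0642-treated Tau mice. The ratio of Gria1 to Gria2 counts was 0.524 and 0.42 in WT, 0.493 and 0.426 in Tau and 0.384 and 0.403 in the treated libraries, which were lowest. Gria2 to Grin2b was highest in the treated libraries, at 1.26 and 1.38 against 0.858 to 1.19 elsewhere. Grin2c to Grin1 overlapped, at 0.186 and 0.22 against 0.141 to 0.201 elsewhere. Grin2b to Grin1 also overlapped, at 5.91 and 5.66 against 5.68 to 7.58 elsewhere. How often ratios of other gene pairs separate these libraries was not measured. The 2 treated libraries are also the only Tau libraries with Y-linked expression, so these ratios cannot be assigned to the compound.

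**Figure D5:**
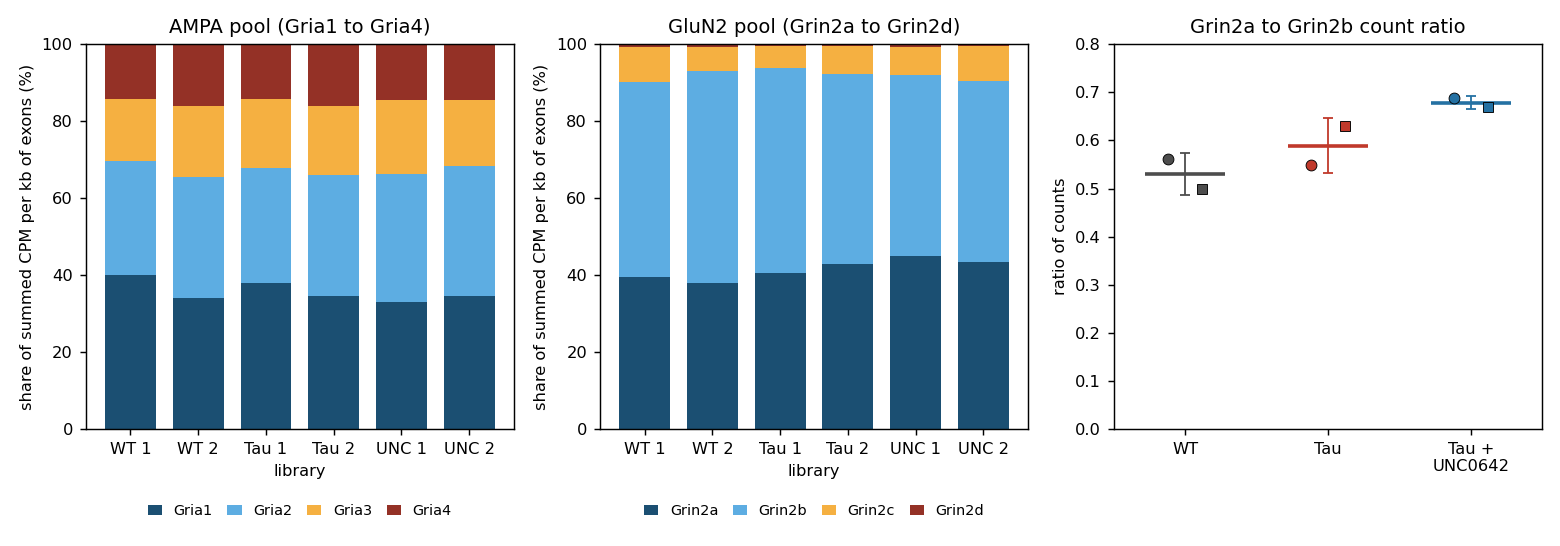
Left and middle, share of each gene in the summed CPM per kb of exons (%, vertical axis) of the AMPA and GluN2 pools by library; right, ratio of Grin2a to Grin2b counts by group, with circles for replicate 1, squares for replicate 2 and mean ± SD of 2 libraries. The ratio is 0.688 and 0.668 in the UNC0642 libraries, above 0.499 to 0.629 in the other 4.

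Genes with the most similar profile were found by the root mean square difference of log2 CPM, each centred on its own mean, over the 6 libraries. For Grin2c these were Zfp219 (0.0346), Anks3 (0.0401) and 4930598N05Rik (0.047). Nap1l1 (0.0134), Elmod1 and Camk4, a calcium- and calmodulin-dependent kinase, were nearest to Gria2. Grin1 was followed most closely by Sh3pxd2a (0.0184), Luzp2 and Ncan, a perineuronal proteoglycan. Adgrl2 (0.0261), Calhm5 and the AMPA receptor gene Gria3 (0.0368) were nearest to Grin2a, and Gm44696 (0.0363), Il17rd and Il17d to Grin2b. The nearest gene was Adcyap1r1 for Gria1 (0.0244), Tmem170b for Gria3 (0.025), BC051142 for Grin2d (0.0489) and 4933406I18Rik for Grin3a (0.0293). With 6 libraries such likeness includes shared differences in tissue and sex.

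Genes that act on the receptors were read against the same backgrounds, 9.81% of all genes called in Tau against WT, 7.69% after UNC0642 and 9.47% in UNC0642-treated Tau against WT. Of 12 AMPA auxiliary subunit genes, all tested, 1 was called lower in Tau against WT and 1 was called lower after UNC0642, and none was called higher. Cacng5, a TARP that binds AMPA receptors, fell by 0.93 on the log2 scale in Tau against WT (SE 0.36, adjusted p = 0.36). Its level was 23.9 CPM in the library labelled WT replicate 1, the library with the olfactory bulb markers, and 5.57 to 9.12 CPM in the other 5, and the part of that tissue in the call was not tested. Shisa7 fell after UNC0642 by 0.38 (SE 0.14, adjusted p = 0.48), from 56.7 and 49.9 CPM to 45.1 and 37.2 CPM. In UNC0642-treated Tau against WT, 4 of the 12 were called lower, against 5.69% of all genes, and all 12 were lower by sign, against 52% of all genes, with a median log2 fold change of -0.19 against -0.01 over all genes. The 12 summed to 550 and 582 CPM in WT, 592 and 498 CPM in Tau and 508 and 483 CPM in the treated libraries. Untreated Tau replicate 2 thus lay between the treated libraries, while Tau replicate 1 was above both WT libraries. Cacng4, Cacng5, Cacng7 and Shisa7 were the 4 called, and the WT level of Cacng5 was again 23.9 CPM in the library labelled WT replicate 1 and 8.63 CPM in WT replicate 2.

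Of 16 scaffold and trafficking genes, 0 were called in Tau against WT in edgeR, where 9.81% of all genes were, and 1, Nptx1, had an unadjusted p under 0.05. After UNC0642, 1 was called higher, against 3.73% of all genes. Nptx2, a neuronal pentraxin that clusters AMPA receptors, rose by 0.28 (SE 0.10, adjusted p = 0.48), from 57.3 and 55.7 CPM in Tau to 74.7 and 63 CPM in the treated libraries. In WT it had 50.3 and 46.3 CPM. In UNC0642-treated Tau against WT, Nptx2 was called higher and Grip2, a scaffold of AMPA receptors, lower. Among 3 RNA editing genes, Adarb2, a brain member of the family with no known editing activity, fell by 0.36 in Tau against WT (SE 0.15, adjusted p = 0.387), and after UNC0642 0 of 3 were called or had an unadjusted p under 0.05 in edgeR. Of 5 genes of NMDA co-agonist supply 4 were tested, and in Tau against WT edgeR gave 0 calls and 0 unadjusted p-values under 0.05. After UNC0642 the glycine transporter gene Slc6a9 fell by 0.42 (adjusted p = 0.549) and Slc7a10, which encodes a transporter of D-serine and glycine, by 0.38 (adjusted p = 0.561), 2 of 4 called lower against 3.95% of all genes. Their levels were highest in Tau replicate 2, at 18.5 and 15.2 CPM. Of 7 repressor genes (Rest, Ehmt1, Ehmt2, Wiz, Zfp644, Hdac1 and Hdac2), 0 were called in Tau against WT, with 0 unadjusted p-values under 0.05 in edgeR. For Ehmt2, the study reports higher mRNA in Tau than in WT PFC by quantitative PCR, in more mice than were sequenced. Wiz, which encodes a partner of the EHMT enzymes, fell after UNC0642 by 0.50 (SE 0.17, adjusted p = 0.464). Set against WT, treated Tau had Adarb2 of the 3 editing genes (log2 fold change -0.46, adjusted p = 0.279) and Wiz of the 7 repressor genes (-0.78, adjusted p = 0.119) called lower, against 5.69% of all genes, and edgeR called 0 of the 4 co-agonist genes, with 0 unadjusted p-values under 0.05. No gene of these 5 lists had an adjusted p under 0.05.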

How the data were processed

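RNA of the PFC was sequenced in 6 libraries. The authors made strand-specific libraries after ribosomal RNA depletion. They trimmed adapters with Cutadapt and describe a TopHat2 alignment to RefSeq mRNAs, while the submitters' processing notes name mm10, SAMtools, featureCounts and edgeR without versions. They deposited raw counts per gene, without normalization. In WT replicate 2 and Tau replicate 2, 26 date-altered gene names, none a subunit gene, were restored by position.

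Counts were fitted with edgeR 4.0.16 in R 4.3.3: filterByExpr (minimum count 10, minimum total 15), TMM factors (0.966 to 1.04), and a quasi-likelihood fit of the 3 group means to all 6 libraries, with 3 residual degrees of freedom and a biological coefficient of variation of 12.3%. A gene was called at p under 0.05 and at least 1.2-fold, the study's threshold, and p-values were adjusted by Benjamini-Hochberg over 20409 genes. Intervals are 95% and come from the model coefficients. Beyond the labels' statement of biological duplicates nothing shows how replicates were collected, so p-values measure only the spread between these libraries. The depth of 17005664 to 28972176 counts gives each subunit gene but Grin2d at least 486 counts per library. Alternatives used DESeq2 1.42.0, limma 3.58.1, other filters and scalings, a sex term, a replicate block, other thresholds and fits without each library, and a fit without 2 libraries was added after the data were seen. The script was tested on simulated data.

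The subunit genes and other gene lists were chosen with earlier results of these data known. Named genes are all 10 subunit genes, up to 4 called genes per list, the 3 nearest profiles per subunit gene, and Mapt, Prnp and sex-linked genes as label checks. Markers named beside results were chosen after their values were seen, as were genes called only in UNC0642-treated Tau against WT. Gene positions and lengths are from GENCODE M21 (GRCm38), matched by symbol, and promoters from RefSeq (GRCm38.p6). Tables and figures were made with Python 3.11.15, pandas 2.3.3, numpy 2.4.6 and matplotlib 3.10.9. Protein sequences were not used here, and the nearest profiles of Gria4 are not reported here.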

Additional observations from a re-analysis of the deposited data

How the results depend on the processing

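Counts of called subunit genes were small, and 1 library could change them. Under edgeR's likelihood ratio test, DESeq2, limma-voom, DESeq2 size factors, a replicate block and a minimum of 10 counts in every library, they stayed at 1 (Grin2c), 1 (Grin2c) and 0 in Tau against WT, UNC0642-treated against untreated Tau, and UNC0642-treated Tau against WT. A sex term, a 1.5-fold limit and an adjusted p under 0.05 each gave 0 in all 3. In UNC0642-treated Tau against WT the count was 1, Grin2b, with library size alone, no filter or only the 2 groups compared, and 1, Gria2, without a fold limit. Without single libraries the counts ran from 0 to 1, 0 to 2 and 0 to 1. Without both the library labelled WT replicate 1 and Tau replicate 2, a fit added after the data were seen, they were 0, 2 (Grin2b and Grin2c) and 1 (Grin2b). Its p-values rest on 1 residual degree of freedom, the spread of the UNC0642 pair, and are not comparable with the others. In UNC0642-treated Tau against WT the adjusted p of Grin2b was 3.69e-08 in that fit, 0.00535 without a filter, and up to 0.908 over all alternatives. That fit also gave an adjusted p of 9.69e-06 for Grin2b after UNC0642, and for Gria1 of 0.0455 in Tau against WT (log2 fold change 0.25) and 0.0264 after UNC0642 (-0.22), both below 1.2-fold, while these 3 values reached 1 under other alternatives. The causes were not tested.

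Log2 fold changes that changed sign were mostly near 0. With library size alone they were, in Tau against WT, -0.041 for Gria2, -0.042 for Gria4 and -0.029 for Grin2a, and in UNC0642-treated Tau against WT -0.038 for Grin2c, which was -0.0013 with no filter and -0.012 with at least 10 counts in every library. Gria1 was 0.0016 in limma-voom in Tau against WT. The sex term rests on the difference within the WT pair alone. With it, Tau against WT gave 0.11 for Gria1, -0.022 for Gria2, -0.015 for Gria3, -0.071 for Gria4 and -0.079 for Grin2a. The same term gave 0.16 for Gria4, 0.24 for Grin2b, -0.037 for Grin2d and 0.038 for Grin3a after UNC0642, and 0.091 for Gria4 and -0.082 for Grin2c in UNC0642-treated Tau against WT. Without both libraries, Grin2c was -0.23 (call lost), 0.32 and 0.092 in the 3 comparisons. There, Tau against WT gave 0.25 for Gria1, -0.083 for Gria4, 0.10 for Grin1 and 0.048 for Grin3a, the treatment gave -0.029 for Gria3, -0.080 for Grin2a and -0.090 for Grin2d, and treated Tau against WT gave 0.034 for Gria1 and -0.042 for Grin2a.

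Without single libraries the values that changed sign in Tau against WT ran from -0.16 to 0.14 for Gria1, -0.025 to 0.082 for Gria2, -0.018 to 0.17 for Gria3, -0.075 to 0.13 for Gria4, -0.13 to 0.11 for Grin1, -0.083 to 0.17 for Grin2a, -0.34 to 0.12 for Grin2b and -0.25 to 0.11 for Grin3a. The ranges after UNC0642 were -0.22 to 0.076 for Gria1, -0.033 to 0.14 for Gria3, -0.20 to 0.038 for Grin1, -0.080 to 0.16 for Grin2a, -0.39 to 0.049 for Grin2b, -0.20 to 0.36 for Grin2d and -0.25 to 0.11 for Grin3a. The ranges in UNC0642-treated Tau against WT were -0.18 to 0.031 for Gria1, -0.11 to 0.091 for Gria4, -0.045 to 0.21 for Grin2a and -0.081 to 0.088 for Grin2c. A replicate block left Grin2c at -0.30 and 0.30 (adjusted p = 0.455 and 0.626) and changed no call. The replicate numbers did not pair the libraries, which come from different mice (correlations of replicate differences -0.034, -0.021 and -0.0033). At 46 to 119 counts per library, the interval of Grin2d reached past 2-fold in both comparisons with WT.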
